A study of Mus musculus with 30 samples.

Results

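Ighv5-12 and the Ighv5-9 position are V segments of the Ighv5 family in the part of the mouse immunoglobulin heavy chain locus (Igh) that lies nearest to the D segments. Their joins were taken as all junctions that fell on chromosome 12 in a window of 75 kb on the bone marrow alignment target or of 74.7 kb on mm9, the build used for the cell lines. The window held 6635 of 2074993 junctions in 30 libraries, or 0.320%. Of these, 5784 came from 18 bone marrow libraries, which held 1139295 junctions and 637081 V joins, and 851 came from 12 v-Abl libraries, which held 935698 junctions and 26105 V joins. The window was chosen by its junction level per 100000 junctions and its share of V joins over all 10 groups, so levels and their ratios are given as a description and were not tested.

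Genomic DNA was assayed by HTGTS-V(D)J-seq, in which amplification starts from JH4 (the bait) and sequencing shows the segment to which JH4 had been joined. Bone marrow pro-B cells were sorted as B220+IgM-CD43+ from 129SV mice. The intergenic control region 1 (IGCR1), between the D and V segments, carries the CTCF-binding elements CBE1 and CBE2, and the genotypes were CBE12mut (CBE1&2-/-), CBE1mut (CBE1-/-), CBE1inv (CBE1inv/inv), CBE2mut (CBE2-/-), CBE2inv (CBE2inv/inv) and WT. The v-Abl libraries came from C57BL/6 pro-B lines transformed by the v-Abl oncogene, all RAG1-/- with an Emu-Bcl2 transgene, a WAPL degron and a single Igh allele. The 3CBEdel line had also lost the 3'Igh CBEs, and WT names the line that kept them. Every v-Abl culture was given RAG1/2 by retrovirus and arrested with STI-571 at 3 µM for 4 days. In the DoxIAA groups, auxin (IAA) at 150 µM and doxycycline at 2 µg/mL were present for the last 3 days, and the untreated groups had neither. Each of the 10 groups had 3 libraries, and the labels do not say whether these came from separate mice or cultures. Strain, cell type and alignment target differ together between bone marrow and v-Abl cells, so levels were not compared across them. DNA libraries hold no expression, so the labelled cell types could not be checked against markers.

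Heavy chain assembly starts with a D-to-JH join and is completed when a V segment joins the DJH. The RAG recombinase cuts at a recombination signal beside each segment, which is made of a heptamer, a spacer and a nonamer, and in the locus it reaches distant V segments as cohesin moves chromatin past it. CTCF bound at IGCR1 holds that movement back, and WAPL removes cohesin from chromatin. Many V segments near the D end have a CTCF-binding element a short way beyond their own recombination signal. The level below is the number of junctions per 100000 junctions of a library, and the share is the percentage of the library's V joins.

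The sequences at the end of the segments are shown because joins are made there and because they place Ighv5-12 beside its relatives. They are 107 bases of mm9 in the reading direction of the gene, of which the first 17 are the last of the V segment. Capitals mark the heptamer, the nonamer after a spacer of 23 bases, and a stretch that starts 59 bases past the V end in the Ighv5 genes and 61 in Ighv2-5 and resembles the core that CTCF binds. Ighv5-9 lies at chr12:114899980-114900439 and Ighv5-12 at chr12:114940335-114940789, both on the minus strand, 179.6 kb and 219.9 kb from Ighd1-1, the D segment nearest to IGCR1. Ighv5-6, the nearest Ighv5 segment on the D side, Ighv5-2 (VH81X), the functional V nearest to D, and Ighv2-5, the Ighv2 (Q52) segment between both members, are shown for comparison.
Ighv5-9: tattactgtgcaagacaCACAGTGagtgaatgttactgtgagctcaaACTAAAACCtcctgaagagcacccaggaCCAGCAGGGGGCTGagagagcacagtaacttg
Ighv5-12: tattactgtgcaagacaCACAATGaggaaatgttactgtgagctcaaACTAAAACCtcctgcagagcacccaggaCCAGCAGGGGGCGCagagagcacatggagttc
Ighv5-6: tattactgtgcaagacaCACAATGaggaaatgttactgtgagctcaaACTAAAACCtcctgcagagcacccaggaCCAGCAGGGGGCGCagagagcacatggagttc
Ighv5-2: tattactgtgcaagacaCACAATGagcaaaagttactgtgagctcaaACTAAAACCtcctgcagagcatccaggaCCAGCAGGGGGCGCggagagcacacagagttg
Ighv2-5: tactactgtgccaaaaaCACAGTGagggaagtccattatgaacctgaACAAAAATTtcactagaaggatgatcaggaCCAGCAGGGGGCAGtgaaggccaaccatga

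Ighv5-12 and Ighv5-6 had 0 differing bases over these 107, and Ighv5-12 differed from Ighv5-2 at 7 and from Ighv5-9 at 11. The heptamer CACAATG of Ighv5-12 stood at the end of 9 of 112 annotated mm9 V genes (8.04%) and of 5 of 10 Ighv5 genes, and the CACAGTG of Ighv5-9 at the end of 71 of 112 (63.4%). These are matches of letters in the C57BL/6 sequence. The last capitals of Ighv5-12 do not differ from those of Ighv5-6 and Ighv5-2, and those of Ighv5-9 end in other letters. The 129 sequence past the V end was not read here.

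In bone marrow, 4365 of the 5784 window junctions (75.5%) lay at Ighv5-12 and 770 (13.3%) at the position given as Ighv5-9. Another 631 (10.9%) lay at the Q52 segment Ighv2-4, on the D side of both members, and 18 at no segment. In v-Abl cells Ighv5-12 took 611 of 851 (71.8%), Ighv2-5 took 152 (17.9%), Ighv5-9 took 61 (7.17%), and 27 lay at no segment. Just outside the window, Ighv5-6 on the D side held 5250 junctions over all libraries and Ighv2-6 on the far side held 1065. On the bone marrow target the Ighv5-9 position is chr12:114919648-114920107 and Ighv5-12 is chr12:114961492-114961946, 41.844 kb apart. The joins reached far enough into the segments to tell relatives apart: 99.9% of deletional Ighv5-12 joins and 100% of those at the other member read past the base at which the closest relative differs.

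The label Ighv5-12 was borne out by the reads, and the label Ighv5-9 less so in the 129 mice. The majority base of the bone marrow reads matched mm9 Ighv5-12 at 99.6% of 250 bases. At the other position it matched mm9 Ighv5-9 at 242 of 250 (96.8%) and Ighv5-6 at 241 of 250 (96.4%). Over 200 bases it matched Ighv5-9 at 96.5%, while a segment 200.808 kb farther from D matched Ighv5-9 at 99%. That farther segment was a rare one, with 223 junctions over the 18 libraries and 33.2 ± 13.7 junctions per 100000 in WT (SD, n = 3). The member in the window is therefore called Ighv5-9-like in bone marrow. The last 100 bases of its coding end are shown with those of C57BL/6 Ighv5-9, and the 2 bases that differ are in capitals.
Ighv5-9-like (129): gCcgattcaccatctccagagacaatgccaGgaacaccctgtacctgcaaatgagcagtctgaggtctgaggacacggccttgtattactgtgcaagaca
Ighv5-9 (C57BL/6): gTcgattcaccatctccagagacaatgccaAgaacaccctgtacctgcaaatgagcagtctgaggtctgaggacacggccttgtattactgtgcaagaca

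Bone marrow libraries held 11105 to 98682 junctions and v-Abl libraries 13180 to 175957. V joins as a percentage of V plus D joins were 84.9 to 87.9 for CBE12mut, 71.6 to 73.4 for CBE1mut, 45.5 to 48.3 for CBE1inv, 40.5 to 55.1 for CBE2mut, 40.3 to 50.1 for CBE2inv and 30.5 to 36.9 for WT. By their read names, the CBE2mut and CBE2inv libraries shared a sequencing run with no other group, so genotype and run cannot be told apart where they are set against WT. The other bone marrow groups shared the run of WT. Intervals on single libraries count each read as independent and cover no difference between libraries. Reads repeat and carry no molecular identifiers, so the intervals are too narrow for counts of molecules.

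Ighv5-12 was the more used member in every bone marrow group, and its level differed widely between genotypes. It held 85.02, 73.6 and 159.7 junctions per 100000 for CBE12mut libraries, 205, 214 and 162 for CBE1mut, 341, 359.7 and 430.4 for CBE1inv, 849, 937 and 1122 for CBE2mut, and 669, 811 and 781 for CBE2inv, against 429.9, 674 and 475 for WT. Between neighbours in the order of means, CBE2inv, WT and CBE1inv overlapped and the others did not. The CBE12mut and CBE1mut libraries lay below all WT libraries and the CBE2mut libraries above them, while CBE1inv and CBE2inv each overlapped WT by 1 library pair or more. The means were 106 ± 46.8 for CBE12mut, 194 ± 27.6 for CBE1mut, 377 ± 47.2 for CBE1inv, 969 ± 140 for CBE2mut, 754 ± 74.6 for CBE2inv and 526 ± 130 for WT (SD, n = 3 each). Among 146 V segments ordered by mean level, Ighv5-12 was at place 24 for CBE12mut, 27 for CBE1mut, 25 for CBE1inv, 6 for CBE2mut, 8 for CBE2inv and 15 for WT.

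Ighv5-9-like was less used than Ighv5-12 in every bone marrow library. It held 12.1, 41.1 and 23.7 junctions per 100000 for CBE12mut, 37.2, 75.5 and 50.2 for CBE1mut, 64.9, 32.4 and 64.6 for CBE1inv, 295, 144 and 174 for CBE2mut, and 107.7, 106.7 and 107.1 for CBE2inv, against 61.6, 96.6 and 72.3 for WT. CBE12mut lay below every WT library, CBE2mut and CBE2inv lay above, and CBE1mut and CBE1inv overlapped WT. Lines with the same ends and inserted bases form 1 join structure, and in CBE2mut replicate 3, 22 of 72 lines repeated 1 structure. Distinct structures numbered 26, 7 and 11 for CBE2mut and 12, 13 and 7 for CBE2inv, against 11, 23 and 23 for WT. Their libraries held 31576, 11105 and 41433, 25990, 37480 and 15877, and 79560, 57970 and 89905 junctions. Relative to junctions, the structures of both CBE2 groups overlapped WT. Ighv2-4, the Q52 segment on the D side of both members, varied less, with means of 37.6 ± 18.6 for CBE12mut, 75 ± 14.9 for CBE2mut and 66.9 ± 12.4 for WT (SD, n = 3 each). For Ighv5-9-like, in the order of group means, the neighbours WT, CBE1mut, CBE1inv and CBE12mut each overlapped the next.

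**Figure D1:**
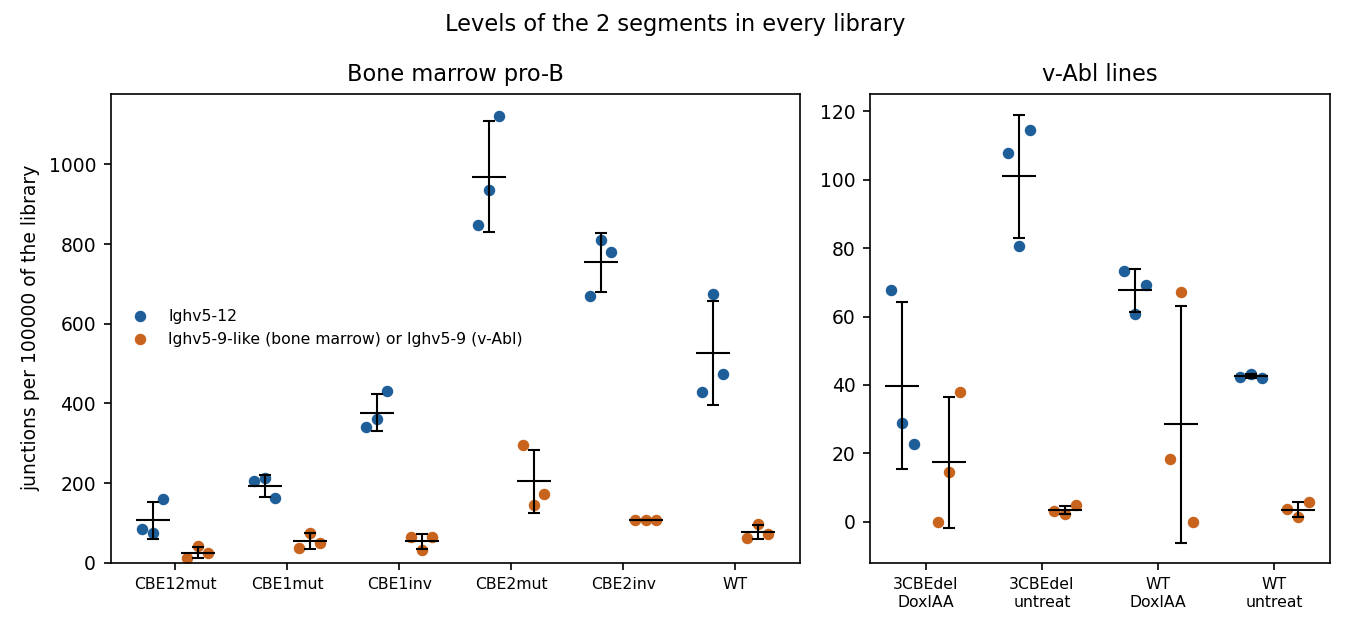
Junctions per 100000 of the library at Ighv5-12 (blue) and at Ighv5-9-like or Ighv5-9 (orange) in every library of the 6 bone marrow groups (left) and 4 v-Abl groups (right, on its own scale). Points are libraries and bars are the mean and SD of 3; Ighv5-12 was highest in CBE2mut bone marrow, at 849 to 1122, and lowest in CBE12mut, at 73.6 to 159.7.

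The window as a whole followed Ighv5-12, its main part. Its level was 171 ± 33.4 for CBE12mut, 307 ± 39.4 for CBE1mut, 482 ± 48.3 for CBE1inv, 1263 ± 94.4 for CBE2mut, 932 ± 89.6 for CBE2inv and 670.1 ± 145 for WT, and when groups were ordered by level no neighbours overlapped. As a share of V joins it was 0.202 ± 0.0433% for CBE12mut, 0.431 ± 0.0527% for CBE1mut, 1.06 ± 0.0796% for CBE1inv, 3.06 ± 0.712% for CBE2mut, 2.32 ± 0.116% for CBE2inv and 2.01 ± 0.447% for WT (SD, n = 3 each). On the share, CBE2mut, CBE2inv and WT overlapped, and the other 3 groups lay apart from WT and from each other.

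**Figure D2:**
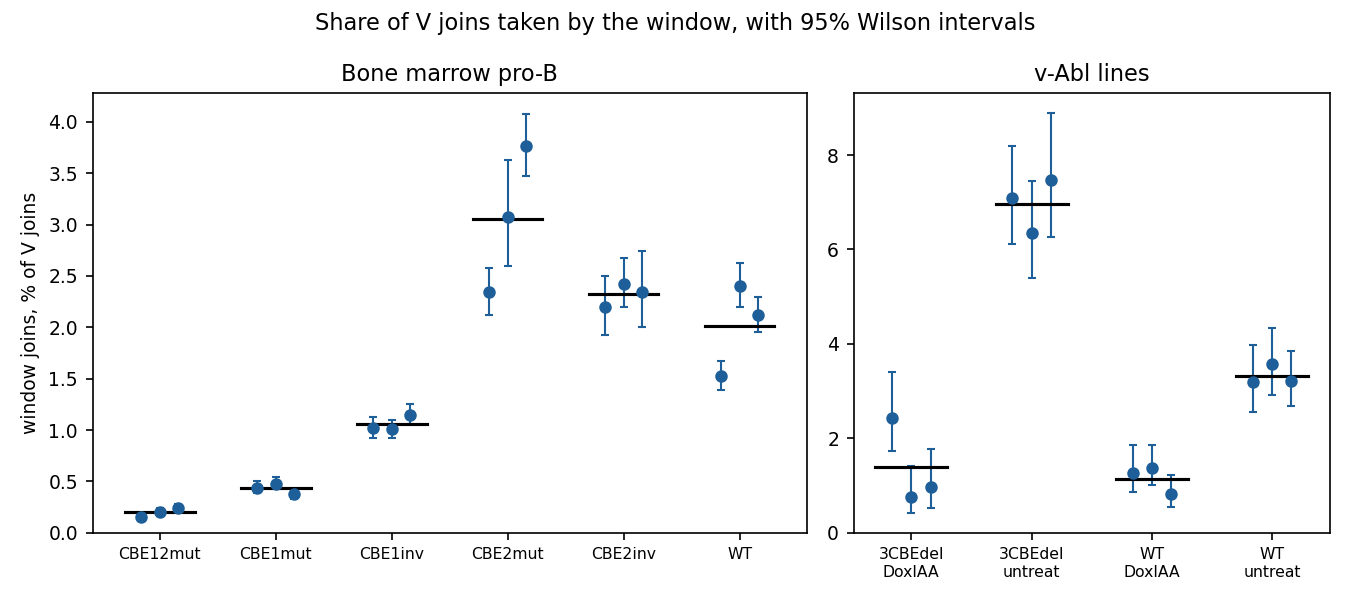
Window joins as a percentage of the V joins of each library, with 95% Wilson intervals (each read counted as independent) as bars and the group mean as a line. In bone marrow the CBE12mut, CBE1mut and CBE1inv libraries lie below all WT libraries, and CBE2mut and CBE2inv overlap WT; among v-Abl groups the 3CBEdel untreated libraries are highest, near 6.97%.

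Ighv5-12 had fewer joins in all CBE12mut and CBE1mut libraries than in WT, Ighv5-9-like in all CBE12mut libraries, and both members overlapped WT in CBE1inv. The window mean in CBE12mut was 0.255 of that in WT, with all 3 libraries lower, as they were at 93.8% of the 130 V segments that had a mean of at least 20 per 100000 in either group. In CBE1mut it was 0.457 of WT and all libraries were lower, as at 74.6% of V segments. In CBE1inv it was 0.719 of WT and all libraries were lower, as at 17.6% of V segments (23, and 29 to 51 on leaving out 1 library, with 51 without WT replicate 3), but with identical reads counted once the ratio was 0.748 and the libraries overlapped. On the scale of log2(junctions per 100000 + 1), the median V segment differed from WT by -2.01 for CBE12mut, -1.0 for CBE1mut and -0.21 for CBE1inv. Ighv5-12 differed by -2.30, -1.44 and -0.48, which is 0.29, 0.44 and 0.27 further down than that median. Ighv5-9-like differed by -1.55, -0.49 and -0.50, which is above the median by 0.46 for CBE12mut and by 0.50 for CBE1mut and below it by 0.29 for CBE1inv. Relative to the median V segment, the direction for Ighv5-9-like is thus turned in CBE12mut and CBE1mut. The split of V segments higher and lower than WT was 3 and 122 for CBE12mut, 3 and 97 for CBE1mut, and 4 and 23 for CBE1inv. With median-of-ratios scaling, which brought the median segment of these contrasts near to no change, it was 9 and 15, 18 and 12, and 10 and 16.

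Set against WT, the CBE2 alleles went the other way. The window mean in CBE2mut was 1.88 times that in WT, and all libraries were higher, as at 6.92% of V segments. Ighv5-12 differed by 0.88 and Ighv5-9-like by 1.40 on the log2 scale, against -0.31 for the median V segment. In CBE2inv the window mean was 1.39 times that in WT and all libraries were higher, as at 11.3% of V segments (15, and 16 to 42 on leaving out 1 library, with 42 without CBE2inv replicate 1 and 36 without WT replicate 1), with log2 differences of 0.52 for Ighv5-12 and 0.47 for Ighv5-9-like against a median of 0.16. The split of V segments higher and lower than WT was 9 and 21 in CBE2mut and 15 and 13 in CBE2inv, and with median-of-ratios scaling 14 and 12, and 14 and 21. With identical reads counted once, all CBE2inv libraries were above WT at Ighv5-12 (ratio 1.43). In the share of V joins at the window, all CBE2mut libraries were then above WT (ratio 1.45), while CBE2inv still overlapped WT (ratio 1.14). Of the reads, 66.9 ± 12.4% were distinct in CBE2mut, 69.1 ± 2.72% in CBE2inv and 86.5 ± 1.56% in WT (SD, n = 3 each). For both alleles the sequencing run differed from that of WT.

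Within a run, inversion could be set against mutation of the same element. In CBE1inv the window mean was 1.57 times that in CBE1mut, all libraries higher, as at 68.8% of V segments. That ratio was 1.95 for Ighv5-12, whose libraries did not overlap, and 0.994 for Ighv5-9-like, whose libraries did, at 54.0 ± 18.7 in CBE1inv and 54.3 ± 19.5 in CBE1mut (SD, n = 3 each). In CBE2inv the window mean was 0.738 of that in CBE2mut, all libraries lower, as at 7.58% of V segments. Both members were lower in all libraries, by ratios of 0.778 for Ighv5-12 and 0.525 for Ighv5-9-like, while the median V segment differed by 0.41 upward on the log2 scale. In distinct join structures relative to junctions, Ighv5-9-like overlapped between CBE2inv and CBE2mut. The split of V segments higher and lower was 86 and 4 for CBE1inv over CBE1mut and 13 and 10 for CBE2inv over CBE2mut, and with median-of-ratios scaling 13 and 18, and 6 and 12. Relative to the median of 0.74 for CBE1inv over CBE1mut, Ighv5-12 was higher by 0.22 and Ighv5-9-like lower by 0.75.

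**Figure D3:**
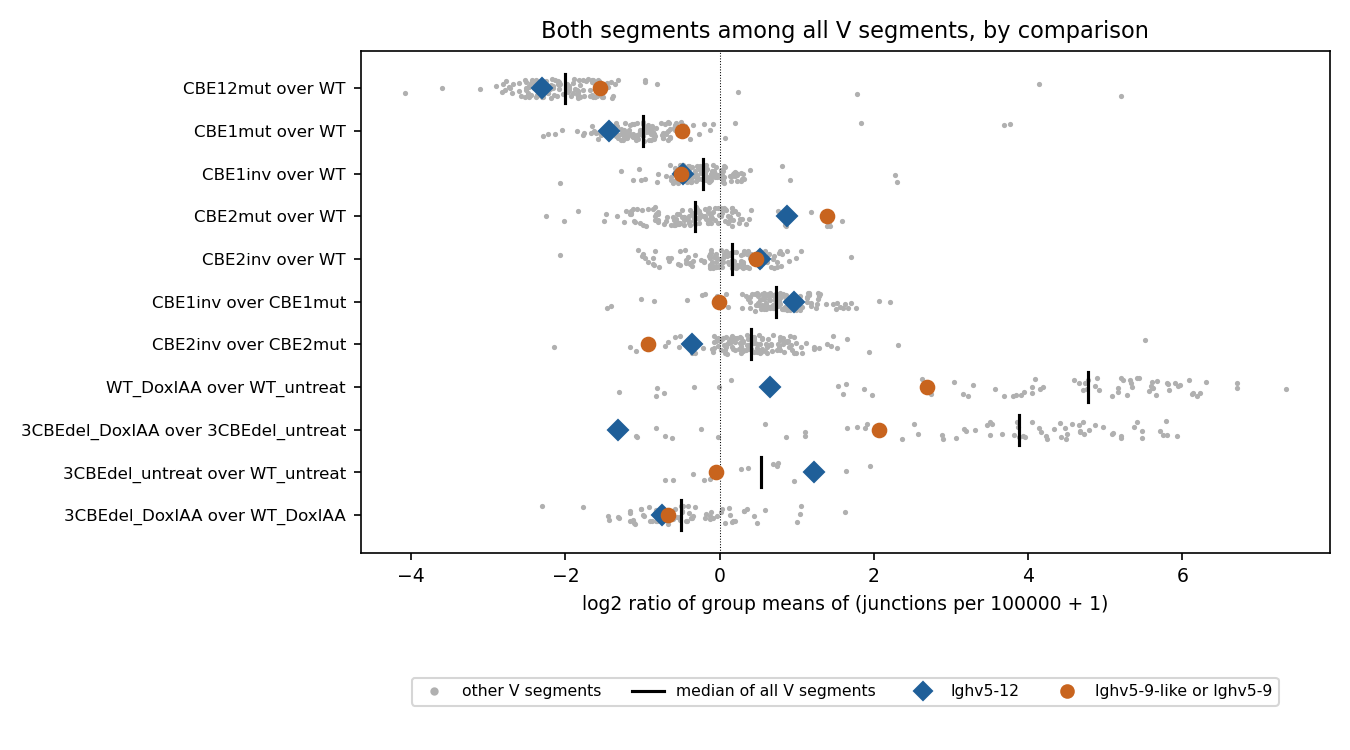
The log2 ratio of group means for Ighv5-12 (diamonds), Ighv5-9-like or Ighv5-9 (circles) and every V segment with a mean of at least 20 per 100000 in either group (grey dots, spread vertically at random), with a black bar at the median of the V segments. Ighv5-12 lies below the median bar in CBE12mut, CBE1mut and CBE1inv against WT and above it in CBE2mut and CBE2inv against WT; after treatment of both v-Abl lines it lies far below the bar.

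Among its relatives, 19 Ighv5 segments of the bone marrow passed the level of 20 per 100000. Of these, 2 were higher and 15 lower in all CBE12mut libraries than in WT (median log2 -1.62), 2 higher and 11 lower in CBE1mut (-0.85), 2 higher and 4 lower in CBE1inv (-0.30), 6 higher and 1 lower in CBE2mut (0.29), and 5 higher and 1 lower in CBE2inv (0.50). Of 17 Ighv2 segments the counts were 1 and 16, 1 and 11, 1 and 5, 2 and 4, and 2 and 4, in the same order of genotypes. Over all V segments, 93.8% were lower in CBE12mut, 74.6% in CBE1mut and 17.6% in CBE1inv. All libraries were higher at 6.92% of V segments in CBE2mut and 11.3% in CBE2inv. Relative to the median V segment, the Ighv5 median lay above it in CBE12mut and CBE1mut and below it in CBE1inv.

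Ighv5-6 was the segment whose bone marrow profile lay closest to that of Ighv5-12. Over 18 libraries and 123 V segments, the root mean square difference of their centred log2 levels was 0.470, against a median of 0.850 over all segments. The other 2 closest were segments without a name here, at 0.487 and 0.523. Ighv5-6 held 156 ± 28.5 junctions per 100000 for CBE12mut, 188 ± 85 for CBE1mut, 264 ± 54.8 for CBE1inv, 1149 ± 109 for CBE2mut, 804 ± 165 for CBE2inv and 639.9 ± 68.4 for WT (SD, n = 3 each). For Ighv5-9-like the closest were Ighv2-3 (0.559), Ighv5-12 (0.624) and a segment without a name (0.643), against a median of 0.899. With a pseudocount of 10, Ighv5-12 was no longer among the 3 closest to Ighv5-9-like. Libraries of a group share their genotype and, in part, their run, so these are descriptions.

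Among the v-Abl lines, the 3CBEdel line without treatment used Ighv5-12 the most. Ighv5-12 held 67.9, 28.9 and 22.8 junctions per 100000 in 3CBEdel DoxIAA, 107.8, 80.6 and 114.5 in 3CBEdel untreated, and 73.2, 60.8 and 69.1 in WT DoxIAA, against 42.4, 43.3 and 42.1 in WT untreated libraries. Means were 39.8 ± 24.5 in 3CBEdel DoxIAA, 101 ± 18 in 3CBEdel untreated, 67.7 ± 6.35 in WT DoxIAA and 42.6 ± 0.667 in WT untreated (SD, n = 3 each). In the untreated lines Ighv5-12 was at place 4 (3CBEdel) and 6 (WT) of 76 V segments, and in the treated lines at place 51 (3CBEdel) and 39 (WT).

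Ighv5-12 was lower in all 3CBEdel DoxIAA libraries than in 3CBEdel untreated libraries, at a ratio of 0.394, as 7.04% of 71 V segments were. With identical reads counted once the ratio was 0.351 and the libraries still did not overlap. In WT the ratio of DoxIAA to untreated was 1.59 with all libraries higher, as at 84.9% of 73 V segments, but it was 1.02 with overlapping libraries when identical reads were counted once. Of the reads, 63.5 ± 2.86% were distinct in WT DoxIAA and 47.9 ± 0.389% in WT untreated libraries (SD, n = 3 each). With all reads counted, the direction within each line was the same in each sequencing run, where replicate 1 of WT and replicate 3 of 3CBEdel, treated and untreated, had runs apart from the rest. With identical reads counted once, this held in 3CBEdel only. In WT, Ighv5-12 was then 89.1 treated and 79.6 untreated for replicate 1. In the other run it was 72.6 and 66.9 treated against 74.9 and 70.4 untreated. The median V segment differed by 3.89 on the log2 scale in 3CBEdel and 4.77 in WT, so relative to it Ighv5-12 was lower in both lines, with differences of -5.21 in 3CBEdel and -4.12 in WT. The split of V segments higher and lower after treatment was 51 and 5 in 3CBEdel and 62 and 2 in WT, and with median-of-ratios scaling 31 and 13, and 39 and 12. Here that scaling left the median V segment at a log2 difference of 1.33 in 3CBEdel and 1.42 in WT, not at no change.

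As a share of V joins, the window was lower in treated cells of both lines. It was 1.39 ± 0.906% in 3CBEdel DoxIAA and 6.97 ± 0.572% in 3CBEdel untreated, and 1.15 ± 0.293% in WT DoxIAA and 3.33 ± 0.209% in WT untreated (SD, n = 3 each). V joins were 6.04 to 7.91% of V plus D joins in 3CBEdel DoxIAA, 1.69 to 1.90% in 3CBEdel untreated, 9.49 to 9.53% in WT DoxIAA and 1.73 to 2.05% in WT untreated. Neither treated and untreated pair overlapped in the share of V joins at the window, also with identical reads counted once.

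Without treatment, the window level was 127 ± 18 in 3CBEdel and 62.5 ± 6.92 in WT, a ratio of 2.03 with all libraries higher, as at 50% of the 14 V segments that reached the level. Of those 14, 7 were higher and 1 lower, and with median-of-ratios scaling 5 were higher and 3 lower. The ratio was 2.37 for Ighv5-12 and, with identical reads counted once, 1.94. Within the run that held libraries of both lines, Ighv5-12 was 107.8 and 80.6 in 3CBEdel and 43.3 and 42.1 in WT. With treatment, 3CBEdel and WT overlapped, at 89.6 ± 49.8 and 108 ± 27.7 for the window (SD, n = 3 each).

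Ighv5-9 had few joins in v-Abl cells. There were 0, 3 and 5 in the 3CBEdel DoxIAA libraries, 4, 3 and 4 in 3CBEdel untreated, 4, 21 and 0 in WT DoxIAA and 5, 2 and 10 in WT untreated. Every pair of groups overlapped in level. By the upper end of the 95% Wilson interval, the counts of 0 allow up to 17.4 per 100000 in 3CBEdel DoxIAA replicate 1. In WT DoxIAA replicate 3 they allow up to 13.3. Of the 21 lines in WT DoxIAA replicate 2, 13 repeated 1 join structure. By profile over 12 v-Abl libraries, the segments closest to Ighv5-12 were Ighv5-4 (0.745), Ighv2-2 (0.851) and Ighv5-2 (0.876), against a median of 2.69 over 67 segments. Those closest to Ighv5-9 were Ighv7-1 (1.08), Ighv5-15 (1.38) and Ighv2-6-8 (1.41), against a median of 2.56.

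The structure of the joins was not used to choose the segments and was tested. A join is in frame when V and JH4 are read in the same frame, which a heavy chain requires. In bone marrow, 58.8% of joins at both members were in frame against 41.9% of all other V joins, a difference of 16.9 percentage points (SD 12.7, range 0.174 to 43.8) that was positive in 18 of 18 libraries. In a two-sided sign permutation test over 18 libraries p was 1e-05, the smallest that 100000 draws can give, and 6e-05 after Benjamini-Hochberg adjustment over 6 measures. That difference rested on the V segments nearest to D: without Ighv5-1, Ighv5-2, Ighv2-2 and Ighv5-4 among the others, 60.6% of other V joins were in frame and the members were lower by 1.75 points, with 13 of 18 libraries lower (adjusted p = 0.555, sign permutation test). Counting each distinct join structure of a library once left a difference of 13.2 points against all other V (17 of 18 libraries higher, adjusted p = 0.00072, sign permutation test).

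By genotype the members' in-frame share was 66.0 ± 7.69% for CBE12mut, 57.5 ± 4.09% for CBE1mut, 55.0 ± 2.42% for CBE1inv, 60.5 ± 13.6% for CBE2mut, 57.1 ± 11.2% for CBE2inv and 57 ± 5.24% for WT. All other V joins were in frame at 28.9 ± 1.01% for CBE12mut, 33.0 ± 1.91% for CBE1mut, 41.3 ± 1.39% for CBE1inv, 45.5 ± 2.49% for CBE2mut, 53.2 ± 7.94% for CBE2inv and 49.7 ± 1.25% for WT (SD, n = 3 each). The gap to all other V was widest in CBE12mut. With distinct join structures, members and all other V stood at 57.2 ± 10.9% and 53.7 ± 7.33% in CBE2inv and at 52.3 ± 4.29% and 50.8 ± 1.62% in WT (SD, n = 3 each). Other V joins without the 4 nearest segments were in frame at 62.9 ± 0.650% in CBE12mut and 55.9 ± 0.688% in WT. No genotype contrast in the members' in-frame share reached the smallest p of 0.1 that an exact permutation test of 3 against 3 allows, and a permutation test of the variance between 6 genotypes gave p = 0.659.

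**Figure D4:**
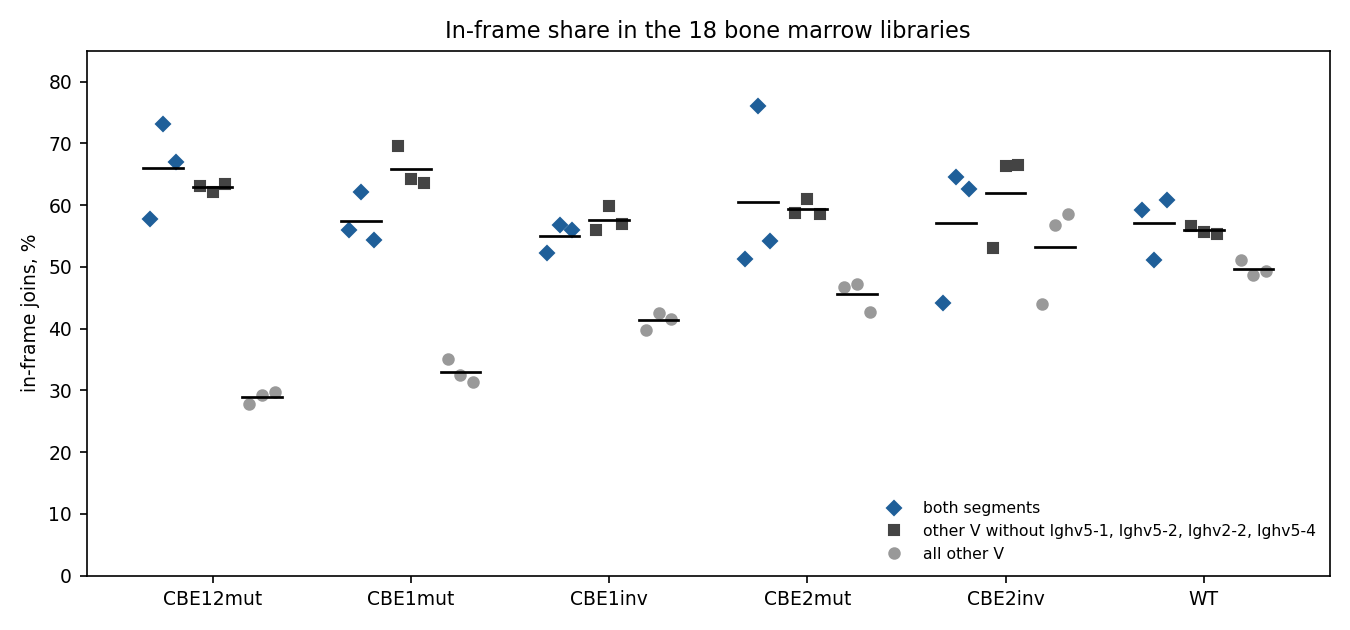
In-frame joins as a percentage of joins with a readable frame, for both members (blue diamonds), for other V without the 4 segments nearest to D (black squares) and for all other V (grey circles), in each of the 18 bone marrow libraries; lines are group means. The members lie above all other V in every library, by 43.8 points at most.

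Along the locus, the in-frame share differed between segments of the same family. In WT it was 28.8 ± 1.86% at Ighv5-2, 35.4 ± 3.65% at Ighv5-4, 37.3 ± 5.47% at Ighv5-6, 63.1 ± 20.1% at Ighv5-9-like and 56.1 ± 3.31% at Ighv5-12 (SD, n = 3). Ighv5-12 and Ighv5-6, whose last coding bases and recombination signals do not differ in mm9, were then set against each other, a pair chosen after these values were seen. Over 18 libraries, 57.4% of Ighv5-12 joins and 45.3% of Ighv5-6 joins were in frame, a difference of 12.1 points (SD 10.2) that was positive in 16 libraries. With distinct join structures the difference was 8.37 points, positive in 14 libraries. Because the in-frame values led to the choice of the pair, these are descriptions and carry no test. By group, Ighv5-12 and Ighv5-6 stood close in CBE12mut, at 61.1 ± 7.29% and 56.8 ± 3.38%, and in CBE1inv, at 52.4 ± 3.56% and 49.0 ± 14.7% (SD, n = 3 each).

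**Figure D5:**
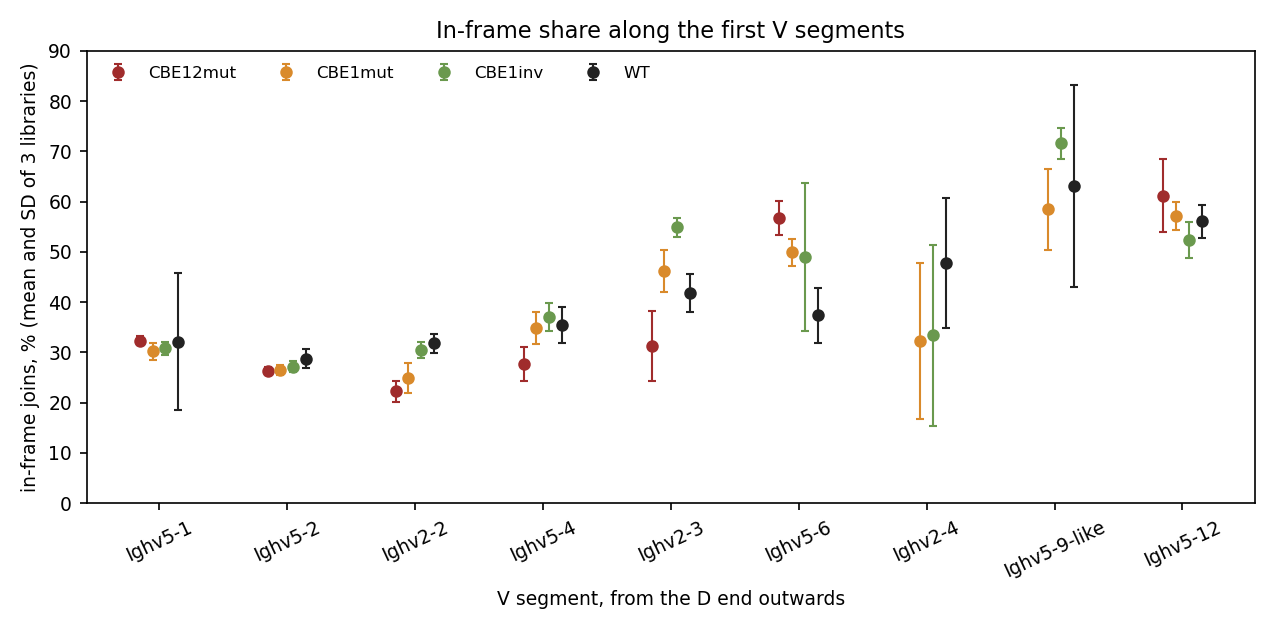
In-frame joins, as mean and SD of 3 libraries, at the V segments from the D end outwards in the 4 bone marrow groups of the run that held WT; segments with fewer than 20 joins of readable frame in a library are not plotted. In WT the share is 28.8% at Ighv5-2 and 56.1% at Ighv5-12.

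At the V end, as placed from mm9 germline genes, fewer bases were missing at the members. The end of the members was placed 8 bases after the codon of the conserved cysteine. Germline sequence past the V end was not read for the bone marrow strain. Whether its segments end at the same base was not tested, and the trimming values depend on this. On average 1.02 bases were missing from the coding end at members and 1.24 at all other V, a difference of -0.219 bases (SD 0.176), lower in 15 of 18 libraries (sign permutation test, adjusted p = 0.00075). Without the 4 nearest segments the difference was -0.126 bases and did not pass (adjusted p = 0.0947, sign permutation test). The stretch between V and JH4, which holds D and added bases, measured 16.6 bases at members and 17 at other V (adjusted p = 0.224, sign permutation test). Deletional joins made up 99% at members and 99.5% at other V (adjusted p = 0.575, sign permutation test).

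D usage inside the joins was read where a run of at least 8 bases matched. Such a run was found in 58.1% of member joins and 57.8% of other V joins (adjusted p = 0.85, sign permutation test). Ighd1-1 made up 26.5% of the D segments read at members and 19.6% at other V, a difference of 6.89 points, higher in 12 and lower in 6 of 18 libraries, which did not pass after adjustment (p = 0.0377, adjusted p = 0.0753, sign permutation test). By genotype the Ighd1-1 share at members was 14.9 ± 16.2% for CBE12mut, 40 ± 13.8% for CBE1mut, 39.2 ± 11.5% for CBE1inv, 18.2 ± 1.95% for CBE2mut, 18.6 ± 12.2% for CBE2inv and 28.0 ± 4.88% for WT (SD, n = 3 each; permutation test of the variance between genotypes, p = 0.064). The CBE2mut libraries all lay below WT, at the exact permutation p of 0.1 (adjusted p = 0.56). The CBE12mut mean holds libraries at 3.03%, 33.3% and 8.41%. Other V joins held Ighd1-1 at 8.68 ± 0.293% for CBE12mut, 20.7 ± 0.291% for CBE1mut, 22.4 ± 1.31% for CBE1inv, 16.1 ± 1.48% for CBE2mut, 19.2 ± 1.89% for CBE2inv and 30.6 ± 0.377% for WT (SD, n = 3 each). Over the 4 genotypes of the run that held WT, the permutation test of the variance at members gave p = 0.125. Over 6 genotypes the permutation test gave p = 0.0108 with identical reads counted once. Leaving out 1 library, it gave 0.00725 without CBE12mut replicate 2, 0.0218 without CBE1mut replicate 3, 0.0256 without CBE1inv replicate 3 and 0.0389 without CBE2inv replicate 1, and the other 14 fits did not pass, at p = 0.0786 to 0.137 (permutation tests).

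Of the pooled member joins with a readable frame, Ighd4 sequence was read in 12 of 312 for CBE12mut (3.85%), 4 of 540 for CBE1mut (0.741%), 15 of 1165 for CBE1inv (1.29%), 5 of 988 for CBE2mut (0.506%), 6 of 673 for CBE2inv (0.892%) and 43 of 1278 for WT (3.36%). Among other V joins the share was 2.29% for CBE12mut, 1.52% for CBE1mut, 1.62% for CBE1inv, 2.13% for CBE2mut, 1.66% for CBE2inv and 1.53% for WT. Ighd4-1 is the D segment nearest to JH. In-frame member joins had a median of 12 codons between the conserved cysteine and tryptophan for CBE12mut, 13 for CBE1mut, 14 for CBE1inv, 13 for CBE2mut, 13 for CBE2inv and 14 for WT, against 13 at other V in every genotype.

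The split between both members was not shown to differ between genotypes (permutation test of the variance, p = 0.385 over 6 genotypes and 0.369 over the 4 of one run). Ighv5-12 took 79.6 ± 13.3% of their joins for CBE12mut, 78.3 ± 5.65% for CBE1mut, 87.6 ± 3.90% for CBE1inv, 82.5 ± 7.15% for CBE2mut, 87.5 ± 1.19% for CBE2inv and 87.2 ± 0.393% for WT (SD, n = 3 each). CBE1mut and CBE2mut lay below WT in every library, each at the exact permutation p of 0.1 (adjusted p = 0.35 over 7 comparisons). For CBE2mut this was narrow outside replicate 1: its libraries stood at 74.2%, 86.7% and 86.6%, against 86.8% in the lowest WT library. The CBE12mut libraries held 72, 81 and 178 joins at the members.

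In v-Abl cells no join measure passed, and in the treated libraries none could. Members were in frame at 32.5% and other V at 30.5% in the 3 WT DoxIAA libraries with at least 20 member joins (exact sign permutation test, p = 1, where the smallest possible is 0.25). In those libraries members lacked 0.918 bases more at the V end than other V, in 3 of 3 libraries (exact sign permutation test, p = 0.25). In the 6 untreated libraries, members were in frame at 30.7% and other V at 35% (adjusted p = 0.531, exact sign permutation test). There the smallest possible p before adjustment is 0.03125, and 1 measure alone at that value would not pass after adjustment over 6 measures.

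Each join structure at Ighv5-12 was seen a few times on average. The 1160 Ighv5-12 lines of WT held 412 join structures, or 2.82 lines for each, and the 270 of CBE12mut held 87, or 3.10 lines for each. Of 1843 structures at the members in bone marrow, 3 occurred in more than 1 library. In v-Abl cells 18 of 272 did (6.62%).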

How the data were processed

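The deposited files list 1 line per read with a junction between JH4 and another segment, with positions of both parts and the read's sequence, so the junction counts used here are counts of the lines the authors deposited; the other deposited columns are positions, with no abundance value. Per the submitters' processing notes, reads were aligned with Bowtie2, to mm9 for v-Abl cells and to a 129 Igh sequence joined to mm9 for bone marrow; the version is not given in the sources used here. No line was marked as a duplicate, although read sequences repeat.

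The members and lists were chosen with earlier results of these data known. Junctions within 100 bp of each other were joined into segments of at least 50 junctions, and levels were scaled to 100000 junctions. Segments were named from the GENCODE annotation of mm9, with symbols from RefSeq's gene table, and, in bone marrow, by sequence match. The bone marrow V segments nearest to D, from Ighv5-1 to Ighv2-6, were instead named by their order along the locus. Ighv5-1 of the v-Abl lines was named by order as well. The printed mm9 sequences come from that genome, and the 129 sequence is the majority base of the deposited reads. D segments were read from runs of at least 8 bases that match mm9 D segments, in bone marrow as well. The text names the members, other segments in the windows, the nearest segment on each side, the 3 segments most like each member, Ighv5-1, Ighv5-2, Ighv2-2, Ighv5-4, Ighv2-3 and Ighv5-6, and Ighd1-1 and Ighd4-1.

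Join structure was compared within libraries by two-sided sign permutation (100000 draws, exact under 10 libraries), in bone marrow libraries with at least 50 member joins and v-Abl libraries with at least 20. Genotypes were compared by exact permutation of 3 against 3 libraries, which cannot go below p = 0.1. Untreated v-Abl tests, and the Ighv5-12 with Ighv5-6 pair given without a test, were added after the data were seen. Replicate numbers are shared between groups. In CBE2mut and WT, same-numbered libraries deviated together (correlations 0.11, 0.20 and 0.23 over 124 V segments). In the other pairs of groups, 0 to 2 of 3 libraries matched their own number best. Correlations ran from -0.19 to 0.23 over all bone marrow pairs and from -0.27 to 0.31 over v-Abl pairs. No label says that numbers mark shared mice or days. Scripts ran in Python 3.11.15 with pandas 2.3.3, numpy 2.4.6 and scipy 1.17.1, and were tested on simulated data.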

Additional observations from a re-analysis of the deposited data

Results flagged for a closer look

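At Ighv5-12, treatment with doxycycline and IAA went with opposite directions in the v-Abl lines on the scale of junctions per 100000: the ratio of treated to untreated means was 0.394 in 3CBEdel and 1.59 in WT, with no overlap between treated and untreated libraries in either line. The difference between the lines was not tested, because these levels were used to choose the segments. With identical reads counted once, the ratio was 0.351 in 3CBEdel and 1.02 in WT, where the libraries then overlapped. The treated libraries rest on 15, 6 and 3 Ighv5-12 junctions in 3CBEdel and 16, 19 and 20 in WT. Relative to the median V segment, Ighv5-12 was lower after treatment in both lines, by a log2 difference of -5.21 in 3CBEdel and -4.12 in WT, and the share of V joins at the window was also lower in both, at ratios of 0.199 in 3CBEdel and 0.345 in WT.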

How the results depend on the processing

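With both named segments and 100 bp around them only, the level was 132 in CBE12mut, 248 in CBE1mut, 431 in CBE1inv, 104 in 3CBEdel untreated and 46.1 in WT untreated, and the share of V joins was 0.156%, 0.349% and 0.946% in those bone marrow groups, 2.14% in CBE2inv, 5.74% in 3CBEdel untreated and 2.47% in WT untreated. With V plus D joins as denominator the level was 1371 in CBE2mut and 1040.2 in CBE2inv, and with deletional joins only 1036 in CBE2inv. With identical reads counted once it was 183 in 3CBEdel untreated and 109 in WT untreated, whose share was 3.72%. With distinct structures, added after the data were seen, the share was 0.257% in CBE12mut, 0.50% in CBE1mut, 1.15% in CBE1inv, 2.17% in CBE2inv and 4.34% in WT untreated.

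Median-of-ratios scaling gave 15 V segments lower in CBE12mut than WT, 12 lower in CBE1mut than WT, 14 higher in CBE2mut than WT, 13 higher in CBE1inv than CBE1mut, 39 higher in WT DoxIAA than untreated and 13 lower in 3CBEdel DoxIAA than untreated. With at least 10 junctions in 3 libraries, 11 were higher in 3CBEdel than WT untreated. Leaving out 1 library gave 29 to 51 lower in CBE1inv than WT (51 without WT replicate 3), 9 to 16 higher in CBE2mut than WT (16 without CBE2mut replicate 3) and 16 to 42 higher in CBE2inv than WT (42 without CBE2inv replicate 1, 36 without WT replicate 1).

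Without the 4 V segments nearest to D, the members' differences from other V were -1.75 points in frame, -0.587 with a D, -0.194 for Ighd1-1 and -0.126 bases trimmed; with distinct structures as well, -3.88 in frame, -2.89 for Ighd1-1 and -0.0979 bases trimmed. For Ighv5-12 alone the D-bearing difference was -0.429, and leaving out 1 replicate it ranged from -0.940 to 2.38 for both members. The inserted length passed with distinct structures only (-0.431 bases, adjusted p = 0.0381, sign permutation test). The cause of these changes was not tested.

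Between genotypes, the SD of Ighd1-1 shares was 10.8 with identical reads counted once (permutation p = 0.0108) and 8.70 to 12.2 leaving out 1 library, and that of D-bearing shares 2.49 to 4.47. With identical reads counted once, the sign turned for the in-frame share of CBE2inv over WT (-0.892), the Ighv5-12 share of CBE1inv (-0.482) and CBE2inv (-0.430) over WT, and the D-bearing share of CBE1inv over CBE1mut (1.10). Leaving out 1 library, in-frame differences ranged from -2.50 to 2.40 for CBE1mut, -4.31 to 8.08 for CBE2mut and -3.63 to 6.5 for CBE2inv over WT, and -8.02 to 4.38 for CBE2inv over CBE2mut. Ighv5-12 shares ranged from -11.6 to 0.0464 for CBE12mut, -1.76 to 2.10 for CBE1inv and -0.202 to 0.915 for CBE2inv over WT. Ighd1-1 shares ranged from -6.88 to 6.77 for CBE1inv over CBE1mut and -6.15 to 5.92 for CBE2inv over CBE2mut, and D-bearing shares from -1.89 to 6.88 for CBE1inv over WT and -4.98 to 3.80 for CBE1inv over CBE1mut. With the replicate number as a block, exact permutation p ran from 0.25, the smallest possible, to 1; without it p ran from 0.1, the smallest possible, so neither design could make a call. With a pseudocount of 10, 1 of the 3 v-Abl segments most like Ighv5-12 stayed the same, and 2 of 3 did for each of Ighv5-9 in v-Abl cells and both members in bone marrow.

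Elsewhere 496 recomputed values were counted as unchanged. For levels, shares of V joins, counts of segments and the segments most like the members, this means only that they were not counted as moved. Such values have no direction or threshold. The other unchanged values kept their direction and side of the threshold. Exact permutation tests between genotypes could not go below p = 0.1, so their side of the threshold could not change. Levels rest on read lines without molecular identifiers, so repeated reads of 1 molecule add to counts, and v-Abl values rest on few junctions.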
